A study of Xenopus laevis with 25 samples.

Results

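Whole *Xenopus* embryos were compared at 14 hours post fertilization (hpf) by sequencing of poly(A)-selected RNA. The tested arm held 3 libraries from embryos injected with an RNF20 morpholino and the other arm held 2 libraries from wild-type embryos, all named by their hour and arm in the titles. These 5 libraries belong to a series of 25 in which the same 2 arms were sampled at 12, 13, 14, 15 and 16 hpf. Morpholinos are antisense oligomers used in embryos to stop the translation or splicing of a chosen RNA. The labels give neither its sequence nor its dose, they name no control morpholino, the wild-type embryos were not stated to be injected, and they do not say whether replicates came from separate clutches. The p-values below therefore measure only the spread between libraries, which may be technical. For most tests below that spread was estimated over all 25 libraries, not from the 5 at 14 hpf alone. Those 25 are not independent, since libraries of the same replicate number correlated across hours within an arm.

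RNF20 and its partner RNF40 form the ubiquitin ligase that places a single ubiquitin on histone H2B in transcribed genes, and the PAF1 complex brings the ligase to elongating RNA polymerase II. By its title, the study asked how H2B ubiquitination bears on the motility of cilia and on the heart. In frog embryos of this age the germ layers have formed, the neural plate is taking shape, and multiciliated cells of the epidermis and the motile cilia of the left-right organizer are being set up.

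The 3 morpholino libraries held 18650700, 14841200 and 18325200 estimated counts, and the 2 wild-type libraries held 12757700 and 15662000. Of 22891 transcripts, 16967 passed the filter on low counts and were tested. Morpholino replicate 3 stood apart. Its log2 CPM (counts scaled to the TMM-adjusted size of the library) correlated over transcripts at 0.925 and 0.937 with morpholino replicates 1 and 2, which correlated with each other at 0.962. The wild-type libraries correlated at 0.954. Between arms, morpholino replicate 1 correlated with wild-type replicates 1 and 2 at 0.953 and 0.960, replicate 2 at 0.940 and 0.956, and replicate 3 at 0.890 and 0.914. Morpholino replicates 1 and 2 were thus about as close to wild type as the wild-type libraries were to each other. Mitochondrially encoded transcripts took 1.43%, 1.62% and 2.89% of the counts in morpholino replicates 1, 2 and 3, against 1.31% and 1.33% in wild type (exact permutation test, two-sided, p = 0.3; the smallest p this design allows is 0.1). Every morpholino share lay above both wild-type shares. The test compared absolute differences of means, so its p does not measure that separation. Markers of neural plate (sox2, sox3), muscle (myod1, actc1), epidermis (tp63, krt12), endoderm (sox17a, sox17b.1) and cilia (foxj1) were all present in the 5 libraries. The organizer markers chrd and noto matched no symbol in the files. The epidermal keratin krt12 was at 407, 323 and 43.7 TPM (a level per length) in morpholino replicates 1, 2 and 3, against 545 and 441 TPM in wild type. The other epidermal marker, tp63, was at 82.0, 89.3 and 72.2 TPM in morpholino replicates 1, 2 and 3. In wild type it was at 69.9 and 75.3 TPM, and the arms overlapped. In whole embryos, fewer cells of a type and less RNA per cell cannot be told apart.

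The RNA of the targeted gene did not separate the arms. The rnf20 transcript was at 68.7, 68.1 and 81.6 CPM in morpholino libraries, against 73.9 and 58.8 CPM in wild-type libraries. The arms overlapped, and the log2 difference was 0.13 ± 0.21 (SE; edgeR quasi-likelihood adjusted p = 0.838). A morpholino need not lower the RNA of its target, so this level checks neither the labels nor the knockdown. The partner ligase rnf40 was at 137, 153 and 177 CPM in morpholino libraries, against 87.6 and 100 CPM in wild type. Every morpholino library was above both wild-type libraries, yet the difference of 0.73 ± 0.20 did not pass the threshold (adjusted p = 0.292). It passed when morpholino replicate 3 was left out at every hour. Over the 22 tested transcripts of H2B ubiquitination and PAF1 complex genes the median log2 difference was 0.15. With edgeR 0 of them were called, and DESeq2 called 1. An unadjusted p under 0.05 was found for 2, 1 higher and 1 lower, and for 8.37% of all tested transcripts. Without overlap 7 were higher (31.8%, where all tested give 18.7%) and 1 lower (4.55%, where all give 20.3%). The E2 enzyme gene ube2b, whose protein works with the ligase, was at 34.9, 30.3 and 27.9 CPM in morpholino libraries, against 44.5 and 43.1 CPM in wild type. These values did not overlap (log2 difference -0.50 ± 0.23, adjusted p = 0.588). Like rnf40, ube2b passed when morpholino replicate 3 was left out at every hour (log2 difference -0.42, edgeR adjusted p = 0.0274).

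A transcript is called here when its adjusted p over all tested transcripts was under 0.05. At 14 hpf 21 transcripts were called (0.124% of those tested), 11 higher (0.0648%) and 10 lower (0.0589%) in morpholino embryos, and 1420 had an unadjusted p under 0.05 (8.37%), 746 higher (4.4%) and 674 lower (3.97%). The called genes included 3 genes of the stress and cell death response that were higher, the dynein-assembly and polymerase-assembly cofactor rpap3, which was lower, and inhibitors of BMP and Wnt signalling that were higher. With morpholino replicate 3 left out at every hour the number of calls was 638 (3.83% of 16668 tested), 333 higher (2%) and 305 lower (1.83%), and all 21 were among them. In 477 of these 638, replicate 3 lay farther from the wild-type mean than the mean of replicates 1 and 2. The count also depended on single 14 hpf libraries: of the 21 calls, 12, 7 and 4 remained without morpholino replicates 1, 2 and 3 in turn, and 1 and 4 remained without wild-type replicates 1 and 2. In a fit of the 5 libraries alone 0 were called, with 1574 at an unadjusted p under 0.05.

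**Figure D1:**
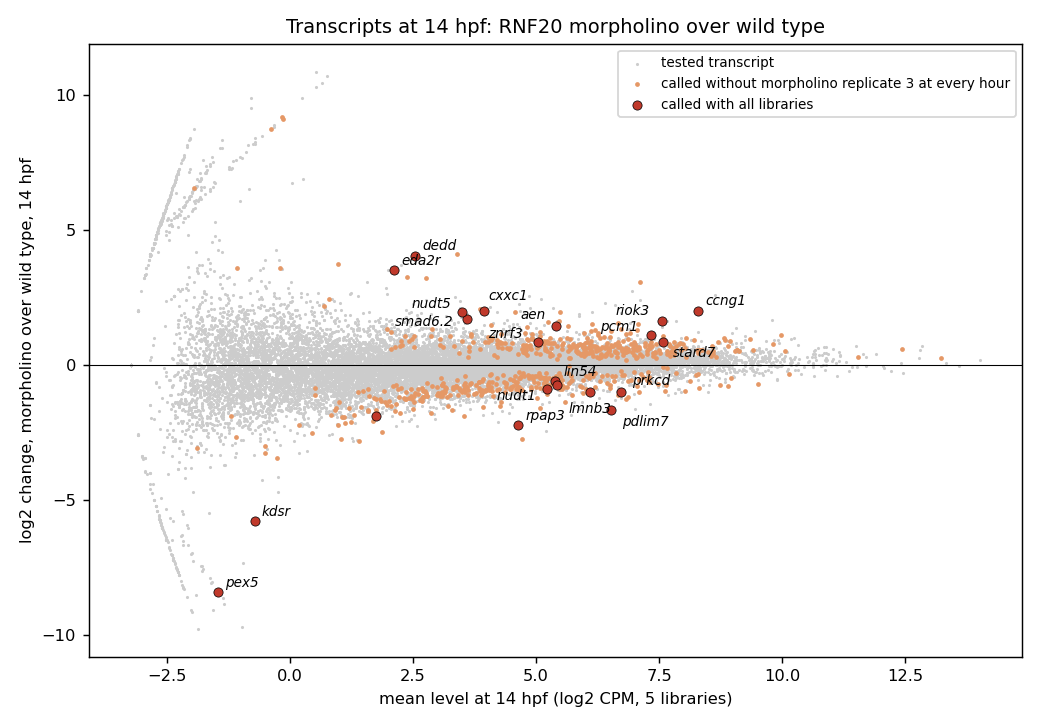
Log2 change of morpholino over wild type at 14 hpf (vertical axis) against the mean level in the 5 libraries (horizontal axis, log2 CPM) for the 16967 tested transcripts. Large points are the 21 called transcripts, small coloured points those called when morpholino replicate 3 is left out at every hour; ccng1 and eda2r lie high, rpap3 and pdlim7 low.

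Cells under stress, as after DNA damage, switch on genes that slow the cell cycle and start cell death. The transcript of ccng1, cyclin G1, was at 500, 543 and 607 CPM in morpholino libraries, against 125 and 150 CPM in wild type. All 3 morpholino libraries were far above both wild-type libraries, a log2 change of 2.0 ± 0.25 (edgeR adjusted p = 0.00258). The death receptor eda2r was at 10.7, 10.4 and 12.0 CPM in morpholino libraries and at 1.13 and 0.794 CPM in wild type. It was low in both wild-type libraries and far above them in every morpholino library, with a log2 change of 3.51 ± 0.62 (adjusted p = 0.0321). The apoptosis-enhancing nuclease aen was at 64.1, 54.7 and 71.0 CPM in morpholino libraries, against 24.1 and 22.5 CPM in wild type. The arms did not overlap, and aen rose by 1.44 ± 0.27 (adjusted p = 0.0447).

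Among 36 transcripts of stress response and cell death genes these 3 were called, all higher, and 16 were higher with no overlap between arms (44.4%, where all tested transcripts give 18.7%) and 4 lower (11.1%, where all give 20.3%). The median over the list was 0.24, against -0.0053 over all tested transcripts. Without morpholino replicate 3 at every hour 8 were called higher and 0 lower, with mdm2, plk2 and gadd45g among those added. For comparison, that fit called 2% of its 16668 transcripts higher and 1.83% lower. The fit of all libraries called 0.0648% of its 16967 transcripts higher and 0.0589% lower. The calls counted on the other lists are to be read against the same shares. The main transcript of mdm2, which encodes a ubiquitin ligase, was at 106, 115 and 158 CPM in morpholino libraries, against 78.3 and 74.8 CPM in wild type. The arms did not overlap, and mdm2 did not pass the threshold with all libraries (edgeR adjusted p = 0.396). Other genes of this response did not separate the arms. The cell-cycle inhibitor cdkn1a was at 44.7, 33.6 and 19.8 CPM in morpholino libraries, against 47.3 and 36.1 CPM in wild type, and the death effector bax at 117, 135 and 183 CPM, against 111 and 125 CPM in wild type. In both the arms overlapped. These, the other list members given beyond the 2 with the smallest p of each list, and stard7, kdsr, pex5 and the 2 unnamed calls were chosen after their values were seen.

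Among genes of cilia, the called transcripts were rpap3 and pcm1. Rpap3 is a subunit of the R2TP co-chaperone, which with HSP90 assembles RNA polymerase II and, in the cytoplasm, the dynein arms that drive cilia. It was at 15.4, 11.5 and 12.9 CPM in morpholino libraries, against 62.5 and 63.8 CPM in wild type. Every morpholino library lay far below both wild-type libraries. With an SE of 0.29, rpap3 fell by 2.25 in log2 units (edgeR adjusted p = 0.00258). Rpap3 was the single call among 29 transcripts of R2TP and dynein assembly genes, whose median was -0.23 (-0.05 without morpholino replicate 3 at every hour). Of these, 9 were lower (31.0%, where all tested give 20.3%) and 3 higher (10.3%, where all give 18.7%) without overlap. The helicases that form the core of R2TP overlapped between arms in their main transcripts. Ruvbl1 was at 137, 136 and 155 CPM in morpholino libraries, against 125 and 150 CPM in wild type, and ruvbl2 at 213, 196 and 236 CPM, against 189 and 213 CPM in wild type. Spag1, a dynein assembly factor, had a transcript at 66.7, 57.6 and 44.0 CPM in morpholino libraries, against 82.4 and 83.8 CPM in wild type (log2 difference -0.57 ± 0.17, adjusted p = 0.343), and a further transcript that was higher in every morpholino library, so its gene level is uncertain.

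Pcm1, the scaffold of centriolar satellites, was at 222, 213 and 223 CPM in morpholino libraries, against 96.7 and 106 CPM in wild type. The 3 morpholino libraries lay within a narrow band above both wild-type libraries (log2 change 1.11 ± 0.15, edgeR adjusted p = 0.00367). It was the single call among 41 transcripts of multiciliated cell regulators and centriole amplification, whose median was 0.26. That median was 0.0055 and -0.086 against 13 and 12 hpf wild type. With no overlap 16 were higher (39%, where all tested transcripts give 18.7%) and 4 lower (9.76%, where all give 20.3%). The 16 included genes that start the multiciliated programme. MCIDAS was at 26.1, 37.2 and 43.9 CPM in morpholino libraries, against 3.04 and 15.6 CPM in wild type. Ccno, which drives centriole amplification, was at 29.0, 44.5 and 50.02 CPM in morpholino libraries, against 3.89 and 24.9 CPM in wild type. In both genes wild-type replicate 1 was far below wild-type replicate 2, and neither passed the threshold (edgeR adjusted p = 0.542 and 0.635). In wild type the log2 difference of 15 over 13 hpf was -2.70 for MCIDAS and -2.24 for ccno. Against 12 hpf wild type the 14 hpf morpholino libraries differed by -0.13 for MCIDAS and by 0.10 for ccno. Foxj1, the regulator of motile cilia, was at 69.6, 71.2 and 83.1 CPM in morpholino libraries, against 54.7 and 70.1 CPM in wild type, and the arms overlapped.

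The 2 lists of structural genes of motile cilia had medians below 0, with no call while all libraries were used. Of the 27 tested transcripts of axonemal dynein arms and docking 0 were called (2 had an unadjusted p under 0.05, both lower). Without overlap 7 were lower (25.9%, near the 20.3% of all tested) and 0 higher (18.7% of all tested), and the median was -0.23. Of 73 further axonemal transcripts, those of nexin links, spokes, the central pair and doublet microtubules, 0 were called (6 had an unadjusted p under 0.05, all lower). Without overlap 28 were lower (38.4%, where all tested give 20.3%) and 2 higher (2.74%, where all give 18.7%), and the median was -0.40. Of all tested transcripts 8.37% had an unadjusted p under 0.05, with 3.97% lower. DESeq2 called 0 on both lists. The dynein intermediate-chain gene wdr78 was at 16.7, 12.43 and 10 CPM in morpholino libraries, against 23.9 and 23.3 CPM in wild type. The arms did not overlap, with a log2 difference of -0.85 ± 0.31 (edgeR adjusted p = 0.488). It was called without replicate 3 at every hour, the single call on the dynein list in that fit. Ccdc63, a gene of the outer-arm docking complex, was at 23.8, 17.8 and 11.9 CPM in morpholino libraries, against 35.0 and 29.8 CPM in wild type. Cfap74, a central-pair gene, was at 3.40, 3.53 and 2.03 CPM in morpholino libraries, against 6.72 and 5.07 CPM in wild type, again with no overlap. Replicate 3 was the lowest of the 5 libraries in 21 of the 27 dynein transcripts (77.8%) and in 54 of the 73 others (74%), where it was lowest in 35.3% of all tested transcripts. Without replicate 3 at every hour the medians were -0.0043 and -0.18. With all 3 replicates they were -0.25 and -0.38 against 13 hpf wild type, and 0.06 and -0.04 against 12 hpf wild type. The 48 transcripts of intraflagellar transport and the BBSome, the machinery that builds cilia, had a median of -0.17 (-0.03 without replicate 3). The median was -0.15 against 13 hpf and 0.0031 against 12 hpf wild type, and replicate 3 was the lowest library in 37. With all libraries 0 were called (1 had an unadjusted p under 0.05; DESeq2 called 0), and 1 without replicate 3. The transcript with the smallest p, ift20, was higher, at 31.6, 29.1 and 30.9 CPM in morpholino libraries, against 24.8 and 20.96 CPM in wild type.

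Left-right and heart genes gave 0 calls with all libraries by edgeR and 0 by DESeq2. Without replicate 3 edgeR called 1 left-right transcript lower and 0 heart transcripts. Of 25 tested transcripts on the Nodal and left-right list 2 had an unadjusted p under 0.05, both higher, and the median was 0. Of all tested transcripts 8.37% had such a p. Gdf3, a TGF-beta ligand that pairs with Nodal, was at 16.8, 25.2 and 33.0 CPM in morpholino libraries, against 9.27 and 15.3 CPM in wild type (log2 difference 1.02 ± 0.47, edgeR adjusted p = 0.588). Mmp21, a secreted metalloprotease gene needed for left-right patterning, was at 5.05, 12.6 and 32.5 CPM in morpholino libraries, against 5.24 and 7.27 CPM in wild type. Here replicate 1 lay below both wild-type libraries. Of 29 heart and cardiac mesoderm transcripts 11 were lower with no overlap (37.9%, where all tested give 20.3%) and 5 higher (17.2%, where all give 18.7%). The median was -0.25, and 3 had an unadjusted p under 0.05, as did 8.37% of all tested transcripts. The cardiac homeobox gene nkx2-5 had its measurable transcript at 26.3, 24.9 and 16.9 CPM in morpholino libraries, against 36.9 and 34.7 CPM in wild type. The arms did not overlap (log2 difference -0.66 ± 0.38, adjusted p = 0.635). Tbx20 was at 17.1, 16.2 and 12.2 CPM in morpholino libraries, against 25.4 and 20.96 CPM in wild type. The cardiogenic GATA factors overlapped, gata4 at 44.2, 55.8 and 52.97 CPM in morpholino libraries, against 41.9 and 46.2 CPM in wild type. Myl4, an atrial myosin light chain, was at 2.27, 0.654 and 0.307 CPM in morpholino libraries, against 10.6 and 2.38 CPM in wild type. The wild-type libraries differed from each other more than the lower of them did from morpholino replicate 1. In wild type myl4 was 3.03 higher at 15 hpf than at 13 hpf on the log2 scale. The 14 hpf morpholino libraries differed by -0.95 from 13 hpf wild type and by 0.67, the opposite sign, from 12 hpf wild type. Without replicate 3 at every hour the median of the heart list was -0.07.

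The remaining called genes with a place on a list belong to signalling and muscle. Smad6.2, an inhibitory Smad that BMP signals induce, was at 15.9, 14.3 and 28.8 CPM in morpholino libraries, against 5.80 and 6.42 CPM in wild type. All morpholino libraries lay above wild type, replicate 3 farthest, with a log2 change of 1.68 ± 0.28 (edgeR adjusted p = 0.0187). It was the single call among 33 BMP and ventral transcripts, of which 11 were higher with no overlap (33.3%, where all tested give 18.7%) and 3 lower (9.09%, where all give 20.3%), with a median of 0.38 (0.12 without replicate 3). The related smad7 was at 25.7, 33.8 and 53.7 CPM in morpholino libraries, against 19.0 and 22.4 CPM in wild type. Replicate 3 was the highest library in 30 of the 33 (90.9%), where it was highest in 34.9% of all tested transcripts. The ventral homeobox gene ventx1.1 was at 14.7, 26.4 and 69.0 CPM in morpholino libraries, against 13.0 and 13.9 CPM in wild type, so replicate 1 lay close to wild type and replicate 3 far above.

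Znrf3, a ubiquitin ligase that removes Wnt receptors from the membrane, was at 35.2, 41.4 and 49.5 CPM in morpholino libraries, against 24.2 and 22.2 CPM in wild type. The arms did not overlap, and znrf3 rose by 0.86 ± 0.16 (edgeR adjusted p = 0.04996, at the edge of the threshold). It was the single call among 48 Wnt transcripts, with 13 higher (27.1%, where all tested give 18.7%) and 11 lower (22.9%, where all give 20.3%) without overlap. The median was 0.19, and 0.06 without replicate 3. Axin2, another feedback inhibitor that Wnt signals induce, had transcripts at 31.3, 33.5 and 54.6 CPM in morpholino libraries, against 17.4 and 24.2 CPM in wild type, and at 93.1, 103 and 175 CPM, against 78.7 and 79.4 CPM in wild type. Neither was called with all libraries and both were called without replicate 3 at every hour.

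Pdlim7, a PDZ and LIM domain protein bound to the actin cytoskeleton of muscle and other cells, was at 64.8, 60.4 and 49.7 CPM in morpholino libraries, against 199 and 174 CPM in wild type. The morpholino libraries stood far below wild type, and pdlim7 fell by 1.68 (SE 0.21, edgeR adjusted p = 0.00258). It was the single call on the list of myogenic factors and muscle, whose 48 transcripts had a median of -0.75. Without overlap 17 were lower (35.4%, where all tested give 20.3%) and 1 higher (2.08%, where all give 18.7%). The fast troponin gene tnni2 was at 54.7, 28.7 and 5.34 CPM in morpholino libraries, against 102 and 59.5 CPM in wild type. The myosin heavy chain gene myh4 had its main transcript at 300.1, 137 and 4.66 CPM in morpholino libraries, against 636 and 290 CPM in wild type. In both genes replicate 3 was far below the other 4 libraries, and wild-type replicate 1 was well above wild-type replicate 2. For myh4 the arms overlapped, since morpholino replicate 1 lay above wild-type replicate 2. Upstream of them, the myogenic factor myod1 was at 72.8, 67.9 and 59.8 CPM in morpholino libraries, against 64.4 and 65.3 CPM in wild type. Myf5 was at 76.5, 71.0 and 91.8 CPM in morpholino libraries, against 57.3 and 68.6 CPM in wild type. Neither was called (adjusted p = 0.951 and 0.740). Replicate 3 was the lowest library in 38 of the 48 muscle transcripts (79.2%), and without it at every hour the median was -0.32. With all 3 replicates the median was -0.50 against 13 hpf and 0.13 against 12 hpf wild type.

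The other called genes sit on no list. Riok3, a RIO-family kinase, was at 257, 270 and 371 CPM in morpholino libraries, against 89.4 and 103 CPM in wild type. It was higher in every morpholino library by 1.64 ± 0.25 (edgeR adjusted p = 0.0114). Stard7, which carries phosphatidylcholine to mitochondria, was at 225, 243 and 258 CPM in morpholino libraries, against 142 and 131 CPM in wild type, a log2 change of 0.83 ± 0.14 (adjusted p = 0.0187). Nudt5, a hydrolase of ADP-sugars, was at 13.4, 18.5 and 26.8 CPM in morpholino libraries, against 4.74 and 5.38 CPM in wild type. It rose by 1.95 ± 0.35 (adjusted p = 0.0321) with no overlap between arms. Dedd, a nuclear protein with a death effector domain, was called in 1 of its 2 transcripts. That transcript was at 8.50, 19.0 and 28.4 CPM in morpholino libraries, against 1.49 and 0.794 CPM in wild type. This was the largest rise among called transcripts, 4.03 ± 0.64 (adjusted p = 0.0166). The other dedd transcript was also higher in every morpholino library, at 20.5, 20.4 and 28.2 CPM, against 13.7 and 13.3 CPM in wild type. It differed by 0.77 and was not called (edgeR adjusted p = 0.423). The sum of both dedd transcripts was 29.0, 39.4 and 56.7 CPM in morpholino libraries, against 15.2 and 14.1 CPM in wild type, a change of 1.52 (adjusted p = 0.0240). Cxxc1, the CpG-binding subunit of a histone H3K4 methyltransferase complex, was called higher in 1 of 4 transcripts. That transcript was at 26.9, 21.6 and 32.4 CPM in morpholino libraries, against 5.52 and 8.07 CPM in wild type (1.99 ± 0.38, adjusted p = 0.04996). The sum of the 4 cxxc1 transcripts differed by 0.41 and was not called (adjusted p = 0.556).

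Among the genes that fell, lmnb3, the B-type lamin of frog eggs and early embryos, was at 60.8, 50.9 and 44.6 CPM in morpholino libraries, against 106 and 102 CPM in wild type. It fell by 1.0 (SE 0.15, edgeR adjusted p = 0.0112) with no overlap. Prkcd, protein kinase C delta, was at 87.0, 84.8 and 67.3 CPM in morpholino libraries, against 149 and 176 CPM in wild type, and fell by 1.03 (SE 0.19, adjusted p = 0.0337). Nudt1, which clears oxidized nucleotides, was at 35.5, 27.3 and 25.3 CPM in morpholino libraries, against 59.1 and 50.7 CPM in wild type. It fell by 0.90 (SE 0.16, adjusted p = 0.0321), the opposite direction to nudt5. Lin54, the DNA-binding subunit of the DREAM complex of cell-cycle genes, was at 35.4, 33.1 and 35.8 CPM in morpholino libraries, against 56.0 and 60.1 CPM in wild type, a fall of 0.74 (SE 0.13, adjusted p = 0.0321). The arms of all 4 genes were apart. The calls for kdsr, a sphingolipid enzyme, and pex5, the import receptor of peroxisomes, rest on low transcripts. Kdsr was at 0.103, 0.131 and 0.123 CPM in morpholino libraries, against 0.424 and 13.4 CPM in wild type, so the wild-type libraries disagreed with each other. Pex5 had 0 counts in all 3 morpholino libraries in this transcript, against 3.11 and 1.47 CPM in wild type. Against a floor of 3 counts per library it was at least 12.8-fold lower, while the sum of its 4 transcripts differed by -0.06. The last 2 calls, ENSXETT00000064850.1 and ENSXETT00000062140.1, have no symbol in the files and were lower by 1.91 and 0.62.

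**Figure D2:**
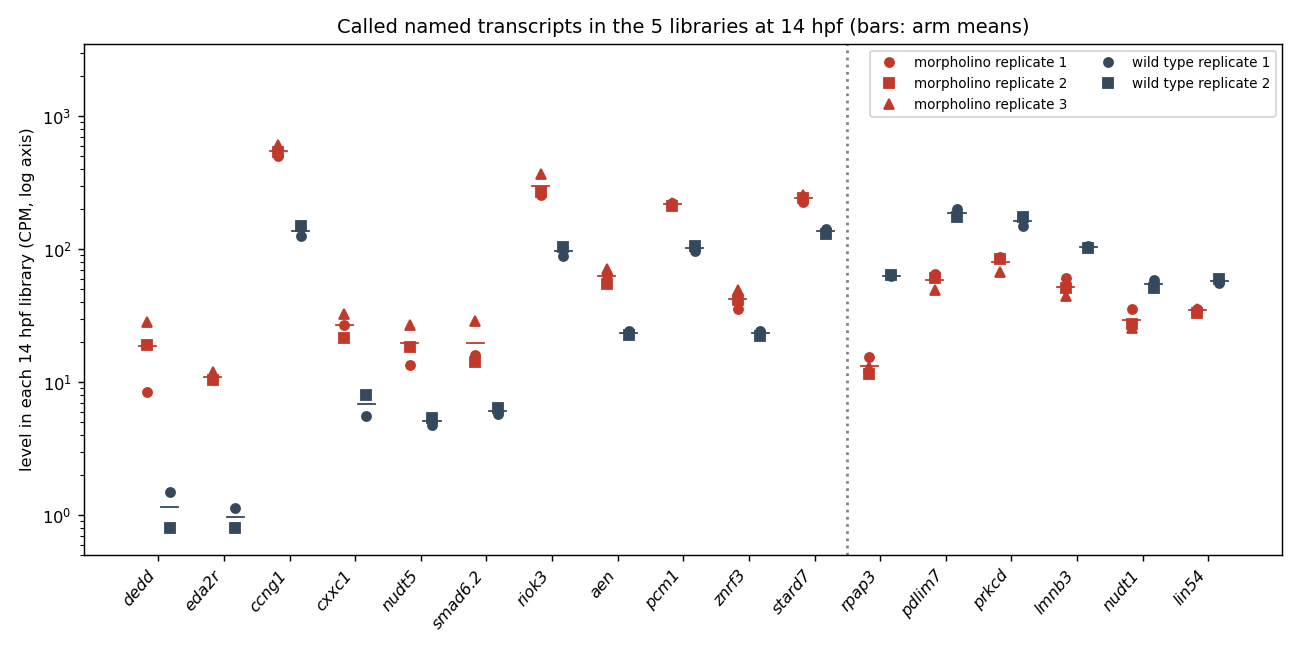
Level of each called transcript with a symbol in the 5 libraries at 14 hpf (vertical log axis, CPM), morpholino libraries left of wild-type libraries for each gene and bars at the arm means. The 11 genes left of the dotted line were higher and the 6 right of it lower in morpholino embryos; kdsr and pex5, at or near 0 in the morpholino libraries, are not drawn.

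The next lower transcripts in order of p were close to the threshold without passing it. Guf1, a GTPase of mitochondrial translation, was at 3.81, 3.79 and 3.87 CPM in morpholino libraries, against 9.41 and 9.17 CPM in wild type (log2 difference -1.28 ± 0.25, edgeR adjusted p = 0.0521). The adiponectin receptor adipor1 was at 88.8, 76.4 and 58.3 CPM in morpholino libraries, against 168 and 159 CPM in wild type (-1.13 ± 0.22, adjusted p = 0.0521). Far1, a fatty acyl-CoA reductase, and mbtps2, a membrane protease that releases sterol-response factors, differed by -0.82 ± 0.16 and -2.15 ± 0.44 (adjusted p = 0.0572 and 0.0674). Each is 1 of 2 transcripts of its symbol, and the sums differed by -0.60 for far1 and by -0.88 for mbtps2. All 4 had arms that did not overlap, and all 4 were called without morpholino replicate 3 at every hour.

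The difference at 14 hpf was next set against that at the other hours, which were measured in other libraries of both arms. These are not independent repeats. Within an arm, libraries of the same replicate number correlated across hours, and the spread was estimated over all hours together. All 21 called transcripts had the same sign at 12, 13, 15 and 16 hpf, 15 were called at 1 or more of those hours, and 7 were called at all 5. The calls over all tested transcripts were 0.0472%, 0.0884%, 0.0943% and 0.2% at 12, 13, 15 and 16 hpf. From 12 to 16 hpf ccng1 differed by 2.09, 1.91, 2.0, 1.72 and 1.85 on the log2 scale. Rpap3 differed by -1.90, -1.78, -2.25, -2.13 and -1.99, and riok3 by 1.51, 1.47, 1.64, 1.5 and 1.58. Pcm1 varied more, at 0.80, 0.60, 1.11, 1.12 and 1.19. Every one of these curves stayed on its side of 0 over the 5 hours. The test of the 14 hpf effect against the mean of the other 4 hours called 0 of 16967 transcripts with edgeR (143, or 0.843%, had an unadjusted p under 0.05) and 15 with DESeq2, and the smallest adjusted p among the 21 was 0.999932. For ccng1 the 14 hpf effect minus that mean was 0.10 and for rpap3 -0.30. The widest gap among the 21 was that of kdsr, which differed by -5.80 at 14 hpf and by -2.29, -1.89, -1.78 and -2.36 at 12, 13, 15 and 16 hpf (14 hpf minus the mean of the others -3.72, unadjusted p = 0.00225). The adjusted p passed for none of the 21, which does not show that their effects were equal across hours. The 5 symbols with the smallest p in this test, mypop, ndel1, bhlhe40, tfap2a and utp11, were each a transcript of a symbol that has others, and the sum over all transcripts of each symbol differed by 0.47 or less on the log2 scale at 14 hpf.

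**Figure D3:**
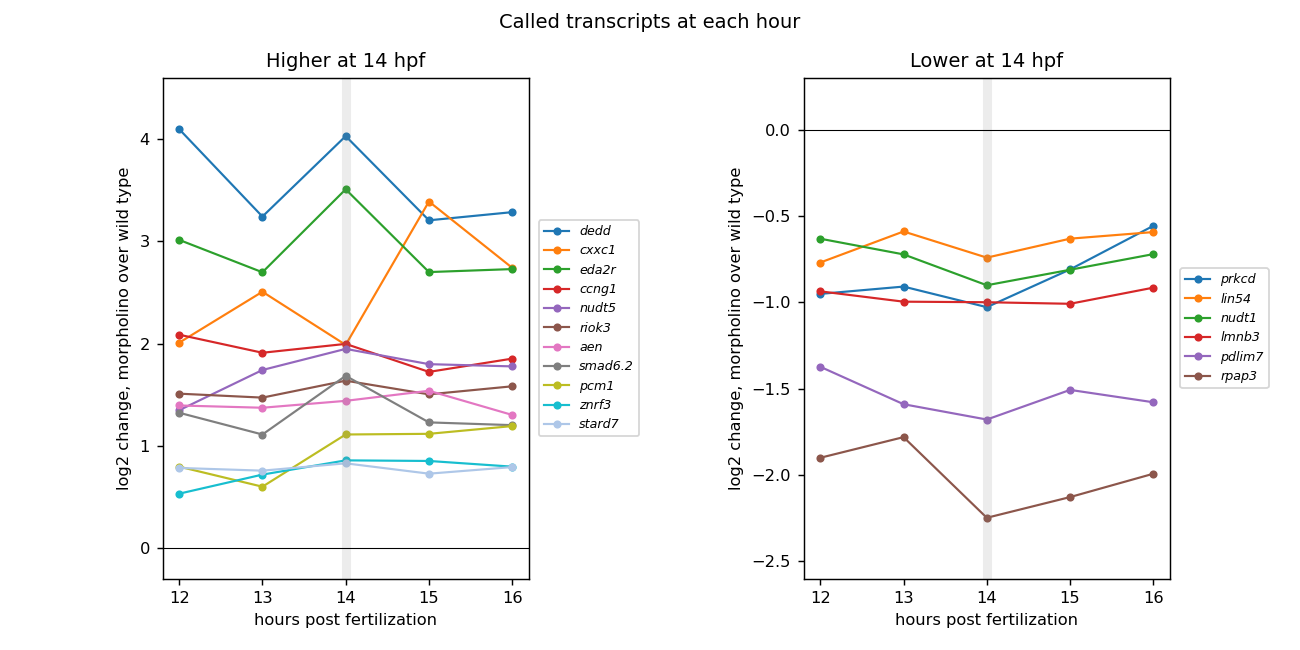
Log2 change of morpholino over wild type (vertical axis) at each hour (horizontal axis) for the called transcripts with a symbol other than kdsr and pex5; the grey band marks 14 hpf. The left panel holds the 11 that were higher and the right panel the 6 that were lower, and no line crosses 0.

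Each hour has its own wild-type libraries, so the 14 hpf morpholino libraries could also be set against younger wild-type embryos. The calls were fewer. Against 13 hpf wild type 10 transcripts were called (0.0589%) and against 12 hpf wild type 12 (0.0707%), and 10 of the 21 were among the calls in each case. Of the stress and cell death genes, ccng1 differed by 2.18 against 13 hpf and 2.28 against 12 hpf wild type, eda2r by 3.51 and 3.53, and aen by 1.51 and 1.51. Rpap3 differed by -2.18 and -2.24 and pdlim7 by -1.56 and -1.43. These stayed close to their 14 hpf differences. Nudt5 differed by 1.28 and 0.92, znrf3 by 0.63 and 0.51, and pcm1 by 0.62 and 0.76, all less than at 14 hpf, the hour that chose them. The same held for dedd (2.72 and 3.14), smad6.2 (1.34 and 1.40) and kdsr (-2.19 and -2.22), which moved most. None of these genes was called against 13 or 12 hpf wild type. These comparisons share the 3 morpholino libraries.

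Beyond the called genes, the many transcripts whose arms did not overlap were compared with the change over time. At 14 hpf 3166 transcripts were higher (18.7% of those tested) and 3452 lower (20.3%) in every morpholino library than in every wild-type library. The change in wild type between 13 and 15 hpf was read from libraries that this choice did not use. Of the 3166 higher in morpholino embryos, 2335 (73.8%) were lower in wild type at 15 hpf than at 13 hpf, as were 47.7% of all tested transcripts. Of the 3452 lower, 2581 (74.8%) were higher in wild type at 15 hpf, as were 51.2% of all tested transcripts. Over the omission of each 14 hpf library from the choice, or of each 13 or 15 hpf wild-type library from the change, the shares ran from 66.4% to 73.8% and from 68.1% to 75.7%. The called transcripts were few: 8 of the 11 higher were lower in wild type at 15 hpf, while 4 of the 10 lower were higher. With all libraries edgeR called 0 transcripts between 13 and 15 hpf in wild type (476, or 2.81%, had an unadjusted p under 0.05; DESeq2 called 18). In morpholino embryos it called 6 (0.0354%), all higher at 15 hpf (2317, or 13.7%, had an unadjusted p under 0.05). The direction and the number in morpholino embryos depended on the fit: DESeq2 called 353, 220 higher and 133 lower at 15 hpf. Without morpholino replicate 3 at every hour edgeR called 2482 (14.9%), 1226 higher and 1256 lower, and it called 128 (0.768%) in wild type. In the morpholino libraries 67.2% of the higher set were lower at 15 hpf than at 13 hpf, as were 46.9% of all tested transcripts. Of the lower set 75.1% were higher at 15 hpf, as were 52.4% of all tested transcripts.

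**Figure D4:**
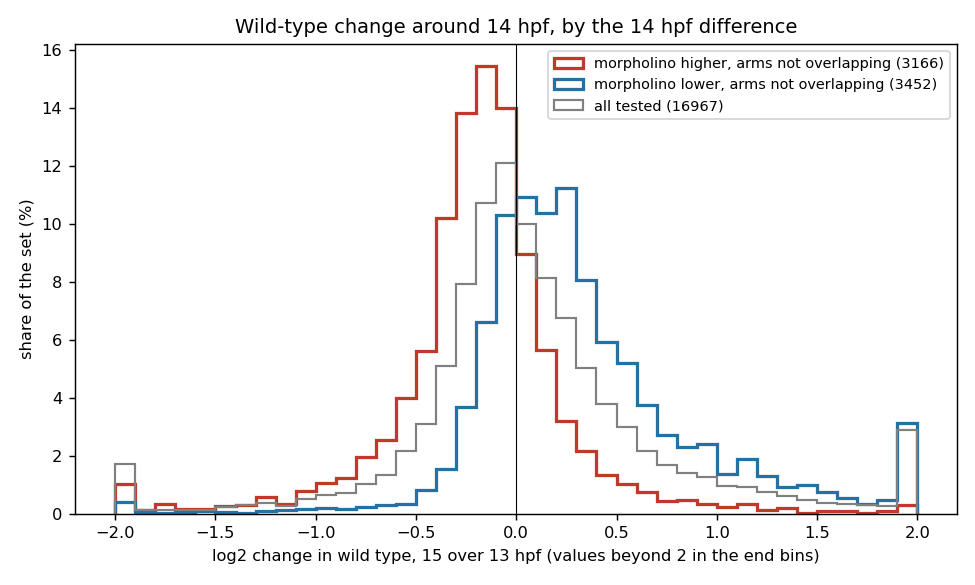
Share of transcripts (vertical axis, percent of each set) by their log2 change in wild type from 13 to 15 hpf (horizontal axis), for transcripts higher or lower in every morpholino library at 14 hpf and for all tested. The higher set has its median at -0.17 and the lower set at 0.23, to either side of all tested transcripts at 0.01.

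The gene lists were set against younger wild type in the same way. The 41 maternal, germ plasm and egg coat transcripts had a median of 0.44, 0.34 and -0.01 against 14, 13 and 12 hpf wild type, and 0.22 without replicate 3. With all libraries 0 were called by edgeR and 0 by DESeq2, and 5 had an unadjusted p under 0.05, as did 8.37% of all tested. Without overlap 14 were higher (34.1%, where all tested give 18.7%) and 1 lower (2.44%, where all give 20.3%). A place on this list does not show that the RNA measured here was maternal. Its member pou5f3.1, a frog relative of the pluripotency factor Oct4, was at 101, 173 and 746 CPM in morpholino libraries, against 31.1 and 71.7 CPM in wild type. Replicate 3 held several times the level of the other morpholino libraries, which in turn lay above wild type. The germ-granule gene tdrd6 was at 42.6, 45.1 and 59.8 CPM in morpholino libraries, against 24.5 and 31.6 CPM in wild type (log2 difference 0.81 ± 0.30, edgeR adjusted p = 0.519).

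Of 34 FGF and early mesoderm transcripts 16 were higher without overlap (47.1%, where all tested give 18.7%) and 4 lower (11.8%, where all give 20.3%). The median was 0.35 (0.21 and 0.02 against 13 and 12 hpf wild type, 0.19 without replicate 3). DESeq2 called 1 of them, and edgeR 3 without replicate 3. Dusp6, a phosphatase that FGF signals induce and that damps them, was at 149, 151 and 161 CPM in morpholino libraries, against 104 and 105 CPM in wild type. Its arms were apart with little spread, and the difference of 0.55 ± 0.14 was 0.62 against 12 hpf wild type (adjusted p = 0.205 at 14 hpf). Etv1, an ETS factor of the FGF pathway, was at 562, 611 and 739 CPM in morpholino libraries, against 422 and 450 CPM in wild type. Of 25 retinoic acid transcripts 11 were higher without overlap (44%, where all tested give 18.7%), 5 lower (20%, where all give 20.3%), and the median was 0.47. It was 0.18 without replicate 3, and 0.10 and 0.13 against 13 and 12 hpf wild type. Aldh1a2, the enzyme that makes retinoic acid, was at 322, 412 and 528 CPM in morpholino libraries, against 193 and 266 CPM in wild type. Cyp26b1, which breaks it down, was at 97.3, 95.9 and 107 CPM in morpholino libraries, against 76.5 and 69.9 CPM in wild type. Both enzymes were higher in every morpholino library, and neither was called (edgeR adjusted p = 0.477 and 0.501).

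Neural and posterior genes leaned lower, with 0 calls by edgeR on either list and 1 and 0 by DESeq2. On the lists 6 and 4 transcripts had an unadjusted p under 0.05, all lower. Of all tested transcripts 8.37% had such a p, with 3.97% lower. Without replicate 3 edgeR called 3 lower on the neural list, prph among them, and 1 lower on the Hox and Cdx list. Of 52 neural plate and neuron transcripts 17 were lower without overlap (32.7%, where all tested give 20.3%) and 4 higher (7.69%, where all give 18.7%). The median was -0.30 (-0.20 without replicate 3). Prph, a neuronal intermediate filament, was at 128, 80.3 and 44.5 CPM in morpholino libraries, against 225 and 179 CPM in wild type (log2 difference -1.26 ± 0.40, edgeR adjusted p = 0.411). Elavl4, an RNA-binding protein of neurons, was at 1.13, 0.458 and 0.0614 CPM in morpholino libraries, against 4.17 and 1.89 CPM in wild type. In both genes all morpholino libraries lay below wild type and replicate 3 was lowest. Of 49 Hox and Cdx transcripts 21 were lower without overlap (42.9%, where all tested give 20.3%) and 3 higher (6.12%, where all give 18.7%). The median was -0.33 (-0.13 and -0.20 against 13 and 12 hpf wild type). Replicate 3 was the lowest library in 33 of them, and the median without it was -0.19. Hoxc10 was at 10.04, 8.70 and 5.77 CPM in morpholino libraries, against 17.5 and 13.4 CPM in wild type, while the posterior gene cdx1 was at 123, 158 and 330 CPM in morpholino libraries, against 89.6 and 121 CPM in wild type. Of 23 blood and endothelium transcripts the median was -0.57 at 14 hpf, -0.14 against 13 hpf wild type and 0.42 against 12 hpf wild type, where the sign changed. Without replicate 3, the lowest library in 17 of the 23, it was -0.24. The alpha-globin gene hba3 was at 1.85, 2.81 and 0.123 CPM in morpholino libraries, against 17.3 and 5.62 CPM in wild type.

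Of 66 cell cycle and replication transcripts 20 were higher (30.3%, where all tested give 18.7%) and 5 lower (7.58%, where all give 20.3%) without overlap, with a median of 0.24 (0.04 without replicate 3 at every hour). Cdc25c, a phosphatase that starts mitosis, was lower instead, at 29.3, 24.1 and 29.9 CPM in morpholino libraries, against 54.3 and 49.4 CPM in wild type (log2 difference -0.90 ± 0.22, edgeR adjusted p = 0.172; called without replicate 3). The mitochondrially encoded transcripts were higher without overlap in 12 of 13 (92.3%, where all tested give 18.7%). Their median was 0.86, 0.29 without replicate 3 and 0.73 against 12 hpf wild type. Replicate 3 was the highest library in 13 of 13, where it was highest in 34.9% of all tested transcripts. The subunit ND5 of respiratory complex I was at 495, 604 and 1560 CPM in morpholino libraries, against 408 and 431 CPM in wild type. The part of replicate 3's higher mitochondrial share in the other list differences was not tested. The stress response and cell death list had medians of 0.18 against 13 hpf and 0.34 against 12 hpf wild type.

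**Figure D5:**
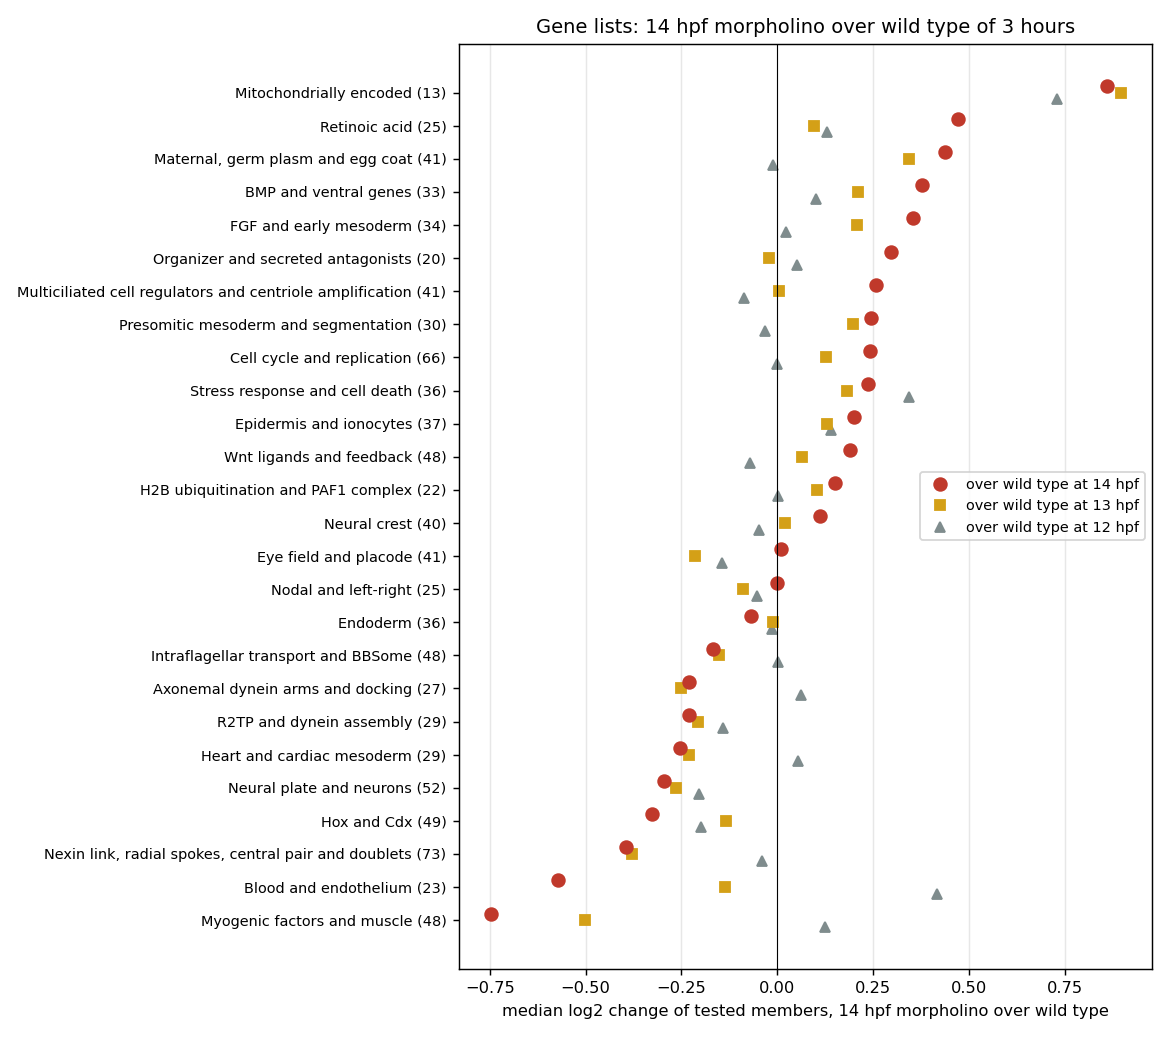
Median log2 change of the tested transcripts on each list (number in brackets) for the 14 hpf morpholino libraries over wild type at 14, 13 and 12 hpf (horizontal axis). Muscle runs from -0.75 at 14 hpf to 0.13 at 12 hpf and the maternal list from 0.44 to -0.01, while the mitochondrial list stays at 0.73 or above and the stress response and cell death list at 0.18 or above.

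Of the other lists, the median was 0.11 for the neural crest (40 transcripts), 0.01 for eye field and placode (41), -0.07 for endoderm (36) and 0.20 for epidermis and ionocytes (37). Without overlap 25%, 14.6%, 13.9% and 29.7% were higher, where all tested give 18.7%. In turn 17.5%, 19.5%, 22.2% and 16.2% were lower, where all give 20.3%. Each had 0 calls by edgeR, and DESeq2 called 1, 2, 0 and 0. An unadjusted p under 0.05 was found for 5, 5, 4 and 3 transcripts, and for 8.37% of all tested. Without replicate 3 edgeR called 2 higher and 1 lower, nkx2-1, on the eye field and placode list and 2 higher, foxi1 and ubp1, on the epidermal list. Within the epidermal list foxi1, the master regulator of ionocytes, was at 96.9, 121 and 146 CPM in morpholino libraries, against 56.7 and 61.4 CPM in wild type. The intelectin gene itln2, made by secretory cells of the epidermis, was at 33.0, 16.4 and 0.798 CPM in morpholino libraries, against 96.2 and 48.6 CPM in wild type. These 2 genes differed in opposite directions, both without overlap and neither called with all libraries. Nkx2-1, a forebrain and thyroid homeobox gene, was at 1.44, 2.09 and 0.491 CPM in morpholino libraries, against 5.94 and 5.87 CPM in wild type (log2 difference -2.13 ± 0.63, edgeR adjusted p = 0.338). The presomitic mesoderm list had a median of 0.24 over 30 transcripts, with 33.3% higher and 16.7% lower without overlap. On it 7 higher and 2 lower transcripts had an unadjusted p under 0.05, and 0 were called. The organizer list had a median of 0.30 over 20, with 20% higher and 20% lower without overlap. Its member lhx1 was at 47.8, 66.2 and 74.8 CPM in morpholino libraries, against 33.3 and 40.6 CPM in wild type. The Notch target hey1, on the presomitic list, was at 33.6, 32.6 and 33.1 CPM in morpholino libraries, against 53.3 and 40.9 CPM in wild type.

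In the authors' deposited table for 14 hpf, 167 of 15748 transcripts had a q-value under 0.05, 109 higher and 58 lower in morpholino embryos. Of the 21 transcripts called here, 18 were among those 167 in the authors' deposited table.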

How the data were processed

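Poly(A)-selected RNA of whole embryos was measured, per the labels' protocols. The authors' deposited tables hold estimated counts and TPM of 22891 transcripts per library, made with kallisto, per the submitters' processing notes. The authors' deposited 14 hpf comparison table, made with sleuth per the same notes, gives p-values, q-values and effects on the natural log scale as wild type minus morpholino, which were turned round (r = 0.988 with the edgeR log2 changes). The sources used here give no versions, options or genome build. The labels give Xenopus laevis, whereas the transcript identifiers begin with the Xenopus tropicalis prefix. Of 19 called symbols, 9 have both an L and an S copy in RefSeq's Xenopus laevis v10.1 table, and reads of both copies would share a transcript. Counts shared between transcripts of a gene are estimates, so differences between such transcripts are uncertain. Strand was not stated.

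Estimated counts were rounded to whole numbers. R 4.3.3 with edgeR 4.0.16 fitted all 25 libraries in 10 groups (arm by hour) by the quasi-likelihood test after filterByExpr and TMM, with Benjamini-Hochberg adjustment over 16967 transcripts, of which 14700 had a symbol. DESeq2 1.42.0 gave an alternative; limma 3.58.1 and jsonlite 2.0.0 were loaded as libraries. SE is the log2 change divided by the root of F; the script was tested on simulated data. CPM uses TMM-scaled library sizes, and library depths of 12757700 to 36150600 counts set the precision. Named transcripts are rnf20 and rnf40; the 10 largest called rises and 10 largest falls (mean of at least 1 log2 CPM, no overlap, filled by p); the 2 smallest p of each of 26 lists; and the 5 smallest p for 14 hpf against other hours. The members, lists and rules were chosen with earlier results of these data known, and 37 of 925 symbols are on more than 1 list. Values of some list members are not reported here.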

Additional observations from a re-analysis of the deposited data

How the results depend on the processing

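The number of calls at 14 hpf, 21, was 22 with RLE size factors and 22 with counts summed per symbol. It was 13 with no filter on low counts, 175 with DESeq2, 638 without morpholino replicate 3 at every hour, 0 with the 5 libraries alone, and 10 and 12 against 13 and 12 hpf wild type. Omission of each 14 hpf library gave 1 to 13. The test of 14 hpf against the other hours gave 0, with 15 by DESeq2 and 0 to 4 over single omissions. The wild-type change from 13 to 15 hpf gave 0, with 18 by DESeq2, 128 without morpholino replicate 3 (which enters only the shared spread) and 0 to 1 over single omissions; the morpholino change gave 6, with 353 by DESeq2, 2482 without replicate 3 and 1 to 5 over single omissions.

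Whether replicate numbers pair the arms was not settled. Same-hour deviations correlated between arms at 0.0625 to 0.185 for number 1, over 0.1 at 4 of 5 hours. For number 2 they correlated at -0.0586 to 0.0552. Within an arm the same number did correlate across hours, at 0.25 to 0.535 for morpholino number 3, 0.124 to 0.426 for morpholino number 1, 0.0274 to 0.189 for morpholino number 2 and 0.103 to 0.172 for both wild-type numbers. The labels do not say what a number stands for. With the replicate number as a block shared by both arms the counts were 187 at 14 hpf (60 higher, 127 lower), 10 in wild type over time and 2193 in the morpholino arm; with a block within each arm they were 1277 (479 higher, 798 lower), 22 and 1969; and the 4 libraries of replicates 1 and 2 with the block gave 396.

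The shares lower or higher in wild type at 15 hpf ran from 66.4% to 73.8% and from 68.1% to 75.7% over single omissions, which were chosen after seeing the data. Of the named transcripts' alternatives 879 kept direction and side of the threshold, 95 lost the call, 106 gained it and 16 changed sign. Summed per symbol these were pax2 (-0.18), utp11 (0.47), bhlhe40 (0.12), ndel1 (-0.076) and tfap2a (0.42). Against 12 hpf wild type they were myl4 (0.67), egfl7 (2.47), bhlhe40 (0.11), hba3 (0.89), hoxd13 (0.12), ube2b (0.045), hoxc10 (0.015) and utp11 (0); against 13 hpf bhlhe40 (0.14); over single omissions rnf20 ran from -0.021 to 0.31 and utp11 ENSXETT00000025157.3 from -8.67 to 0. The cause was not tested. An arm left with 1 library was assumed to vary like the other groups.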

Other observations

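Several symbols had a transcript that differed between the arms at 14 hpf far more than the sum of the symbol's transcripts did. For tfap2a, a regulator of epidermis and neural crest, the transcript ENSXETT00000002335.3 was at 32.0, 4.58 and 29.3 CPM in morpholino libraries, against 111 and 133 CPM in wild type, and ENSXETT00000002336.3 was at 126, 164 and 264 CPM in morpholino libraries, against 41.7 and 37.9 CPM in wild type. Neither pair of arms overlapped, and neither transcript was called (edgeR adjusted p = 0.252 and 0.488). Over its 3 transcripts tfap2a summed to 170, 179 and 331 CPM in morpholino libraries, against 161 and 181 CPM in wild type, and the arms overlapped in that sum.

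Mypop, which encodes a Myb-related protein, had a transcript at 3.60, 3.92 and 3.38 CPM in morpholino libraries and at 0 counts in both wild-type libraries. Against a floor of 3 counts per library it was at least 18.4-fold higher. The sum over both mypop transcripts was 48.2, 47.9 and 60.9 CPM in morpholino libraries, against 46.3 and 46.4 CPM in wild type. Ndel1, a dynein-associated protein, also had a transcript at 0 in both wild-type libraries, at least 19.6-fold higher in morpholino embryos, and its sum was 16.8, 15.2 and 14.3 CPM in morpholino libraries, against 16.5 and 16.4 CPM in wild type. Kdsr, whose called transcript was split between the wild-type libraries, summed to 3.81, 4.45 and 4.05 CPM in morpholino libraries, against 11.2 and 15.2 CPM in wild type. In that sum the wild-type libraries lay close together and above all morpholino libraries (log2 difference -1.67, adjusted p = 0.104). Whether these splits lie in the RNA or in the assignment of reads to transcripts was not tested.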
